A study of Homo sapiens with 36 samples.

Results

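The genes described are 43 genes of autophagy and the lysosome: 2 selective autophagy receptors, 4 ATG8 proteins, 5 genes of initiation and nucleation, 5 of ATG8 conjugation, 2 transcription factors, 5 of the lysosomal membrane and its cholesterol and ion transport, 5 cathepsins, 7 other lysosomal hydrolases and activators, and 8 of the V-ATPase. They were chosen by symbol, with earlier results of these data known, and all 43 were measured, of 11092 genes in all. Expression was read on 36 single-colour Affymetrix arrays of HK-2, immortalized epithelial cells of the human kidney's proximal tubule, with 3 arrays called biological replicates in each of 12 groups. One set of 18 arrays holds cells exposed to CdCl, to Di or to vehicle for 12 h or 48 h, and the other holds cells exposed to Kbr at a low or a high dose or to vehicle for 24 h or 48 h. The labels do not spell out the compounds, and give no concentrations. Every group shares the same single line, seeded 24 h earlier and treated close to confluency. P-values measure the spread between these arrays of one line.

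Autophagy encloses cytoplasm in a double membrane, the autophagosome, which fuses with a lysosome where acid hydrolases digest what it holds. ATG8 proteins are conjugated to lipid in the growing membrane, receptors such as SQSTM1 bind both them and the cargo, and the V-ATPase pumps the protons that acidify the lysosome. Many of these genes carry E-box motifs that TFEB and TFE3 bind when they enter the nucleus, and proximal tubule cells use the pathway heavily because they take up and digest filtered protein. Transcript levels alone do not show how much material passes through autophagy.

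The probe sets of the 43 genes averaged between 4.56 and 13.27 log2 units over all arrays, with a median of 10.21, against 8.07 over all genes measured. On all 36 arrays, 40 of them lay above 4, the level taken as the floor. Arrays of one group correlated at r = 0.983 to 0.996 and arrays of different groups at 0.882 to 0.994. All 6 epithelial markers were measured, but of 13 proximal tubule markers only 5 passed the filter, and LRP2, CUBN, AQP1 and SLC34A1, which define that segment, did not. None of 4 leukocyte and none of 4 endothelial markers passed. Of the fibroblast markers COL1A1 and DCN passed, and of the distal nephron markers SLC12A1 alone (mean 3.85). The beta-actin 3′ minus 5′ difference, a sign of RNA quality, averaged 1.40 to 1.84 by group where CdCl and Di were tested and 0.87 to 1.06 by group where Kbr was, so no level is compared between the sets.

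At 48 h of CdCl, most of the 43 genes moved, and nearly all of those that moved rose. Differences below are treated minus control of the same set and time, in log2 units ± SE of the limma model, 3 arrays against 3, with p-values adjusted over all 11092 genes and a threshold of 0.05. At 48 h of CdCl 28 genes passed, 24 higher and 4 lower, where 42.7% of all genes passed (20.7% higher, 22% lower), and the members' median difference was 0.52 against -0.01 over all genes. Di at 48 h called 24, 18 higher and 6 lower, against 43% of all genes (19.1% higher, 23.9% lower), with a median of 0.22 against -0.01. High Kbr at 48 h called 26, with 13 in each direction, against 61.8% of all genes (27.3% higher, 34.5% lower), a share close to the background. Low Kbr at 48 h called 23, 13 higher and 10 lower, against 47% (23.8% higher, 23.2% lower). RNA came from whole cultures, so fewer cells of a kind and less RNA per cell cannot be told apart. With arrays centred on their medians, CdCl at 48 h called 24 higher and 1 lower.

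The earlier times differed between compounds. CdCl at 12 h called 22, 13 higher and 9 lower, where 43.9% of all genes passed (13.4% higher, 30.5% lower). The median over all genes stood at -0.16 there and moved to 0.00 once arrays were centred, which left 15 higher and 1 lower, so differences at 12 h of CdCl are given below relative to that median, beside the p-value of the unshifted difference. Di at 12 h called 4, all lower, against 6.27% of all genes (1.67% higher, 4.6% lower), and only 2 without replicate 2 or without replicate 3 of its control. The actin 3′ minus 5′ difference moved with that comparison, at 1.22 to 1.5 on the Di arrays and 1.69 to 1.98 on their controls. Its part in the result was not tested. High Kbr at 24 h called 20, 9 higher and 11 lower (10 higher and 7 lower with centring), against 40.7% (15.4% higher, 25.3% lower). Low Kbr at 24 h called 9, 6 higher and 3 lower, against 15.2% (6.93% higher, 8.28% lower), and 5 without replicate 1 of its control or 4 without its own replicate 3. The listed genes are brighter than most, as given above, and the part of that in these shares was not tested. Over the 8 comparisons 23 members were called only upward, 12 only downward, 5 in both directions and 3 in none. The same tally was not made over all genes, and the 8 comparisons share controls in pairs, so it is a description only.

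**Figure D1:**
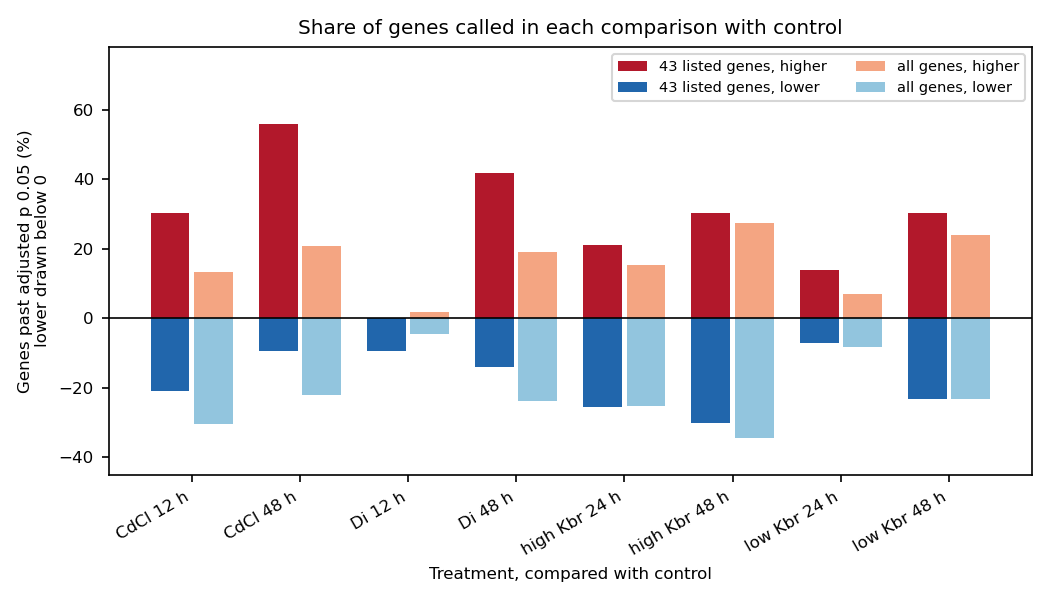
Share of the 43 listed genes and of all 11092 genes past an adjusted p of 0.05 in each comparison with control, in percent, with higher genes above 0 and lower genes drawn below it. The excess of listed genes over the background is widest upward at 48 h of CdCl (24 of 43 against 20.7%) and of Di (18 of 43 against 19.1%), and the bars for Kbr lie near the background.

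**Figure D2:**
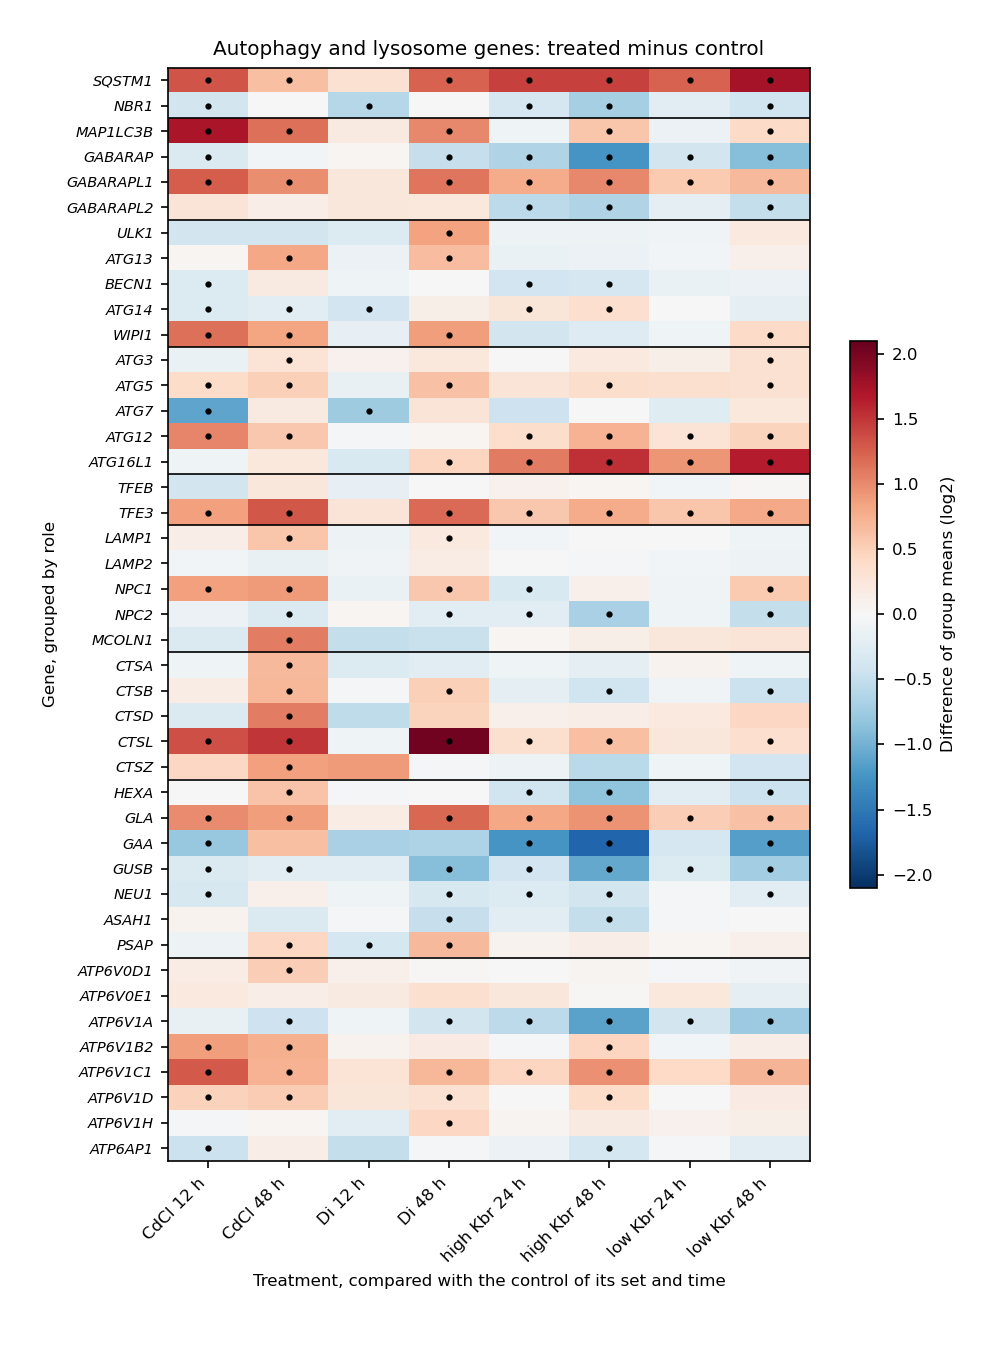
Difference of group means (treated minus control, log2, not shifted for the median of all genes) of each of the 43 genes in 8 comparisons, with dots where the adjusted p was under 0.05 and lines between roles. SQSTM1, GABARAPL1, TFE3 and GLA are red with dots in 7 of 8 columns, and GUSB is blue with dots in 7.

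SQSTM1, the receptor p62 that links ubiquitinated cargo to ATG8 proteins, rose with every compound. At 12 h it read 11.22, 11.44 and 11.30 in control, 12.56, 12.70 and 12.68 with CdCl, and 11.65, 11.59 and 11.67 with Di. The CdCl arrays all lay more than 1 unit above control, and the Di arrays lay just above it without passing the test (0.32 ± 0.16, adjusted p = 0.251). At 48 h the control itself read 12.55, 12.50 and 12.48, CdCl 13.29, 13.14 and 12.99, and Di 13.77, 13.77 and 13.71. No treated array reached down to a control, and Di stood above CdCl. The rise was 1.49 ± 0.16 at 12 h of CdCl (2.80-fold, adjusted p = 2.14e-07), 0.63 at 48 h (adjusted p = 0.00241) and 1.24 at 48 h of Di (2.36-fold, adjusted p = 3.58e-07).

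In the Kbr set SQSTM1 read 11.33, 11.01 and 11.39 in the 24 h control, 12.74, 12.39 and 12.33 at the low dose and 12.94, 12.59 and 12.53 at the high dose. At 48 h these became 11.65, 11.09 and 11.57 in control, 13.62, 13.05 and 12.87 at the low dose and 13.15, 12.78 and 12.69 at the high dose. Every treated array lay about 1 unit or more above every control of its time, and the largest rise was that of the low dose at 48 h (1.74 ± 0.16, 3.35-fold, adjusted p = 2.6e-09). NBR1, a receptor of related build, was called only downward, by 0.70 ± 0.11 at 48 h of high Kbr (adjusted p = 3.08e-06), 0.35 at 24 h of it (adjusted p = 0.0124), 0.42 at 48 h of low Kbr (adjusted p = 0.00233) and 0.59 at 12 h of Di (adjusted p = 0.00148, and 0.0632 with the mean of its probe sets). The Di call was also lost with only the compared groups. NBR1 was called lower at 12 h of CdCl too, a call lost with median centring and with the mean of its probe sets (highest adjusted p = 0.655). Its difference was -0.01 at 48 h of both CdCl and Di.

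The 4 ATG8 genes, whose proteins coat the autophagosome membrane, did not move together. MAP1LC3B, which encodes the common marker LC3B, read 10.69, 10.56 and 10.57 in the 12 h control and 12.24, 12.26 and 12.45 with CdCl, while Di (10.91, 10.59 and 10.89) overlapped the control. By 48 h the control had climbed to 11.76, 11.99 and 11.83, CdCl stood at 13.06, 12.99 and 13.00, and Di at 12.87, 12.88 and 12.86. The rises were 1.87 ± 0.16 at 12 h of CdCl (3.65-fold, adjusted p = 1.54e-09), 1.16 at 48 h (adjusted p = 9.58e-07) and 1.01 at 48 h of Di (adjusted p = 6.32e-06). With Kbr it was called at neither dose at 24 h (-0.09 and -0.12) and rose by 0.58 at 48 h of the high dose (adjusted p = 0.00222). The 0.40 at 48 h of the low dose (adjusted p = 0.0403) had overlapping arrays (11.55, 11.20 and 10.71 against 10.78, 10.61 and 10.88). That call was lost without control replicate 1 or 2 or low Kbr replicate 1 or 2, with a highest adjusted p of 0.336.

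GABARAPL1, a GABARAP relative, rose in 7 of 8 comparisons. In the CdCl and Di set at 48 h it read 7.89, 8.05 and 8.0 in control, 9.05, 8.89 and 8.92 with CdCl and 8.99, 9.21 and 9.11 with Di, and in the Kbr set 7.86, 7.94 and 8.05 in control, 8.62, 8.57 and 8.70 at the low dose and 9.13, 8.85 and 8.91 at the high dose. Treated and control arrays did not overlap in either set. Its rise was 1.44 ± 0.13 at 12 h of CdCl (2.71-fold), and at 48 h 0.98 with CdCl (adjusted p = 4.07e-07), 1.12 with Di (adjusted p = 2.76e-08), 1.01 with high Kbr (adjusted p = 8.04e-08) and 0.68 with low Kbr (adjusted p = 6.88e-05). GABARAP went the other way. Its arrays at 48 h of Kbr fell from 12.42, 12.04 and 12.10 in control to 11.39, 11.19 and 11.31 at the low dose and 11.03, 10.85 and 10.99 at the high dose. The order control, low, high held with no overlap, and the difference was -1.23 ± 0.10 at the high dose (adjusted p = 6.06e-11) and -0.89 at the low dose (adjusted p = 1.01e-07). It also fell by 0.49 at 48 h of Di (adjusted p = 0.000341) and lay at -0.06 at 48 h of CdCl. GABARAPL2 fell in the Kbr set (-0.64 ± 0.13 at 48 h of the high dose, adjusted p = 0.000154, and -0.49 at the low dose, adjusted p = 0.00336) and passed in no comparison with CdCl or Di.

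**Figure D3:**
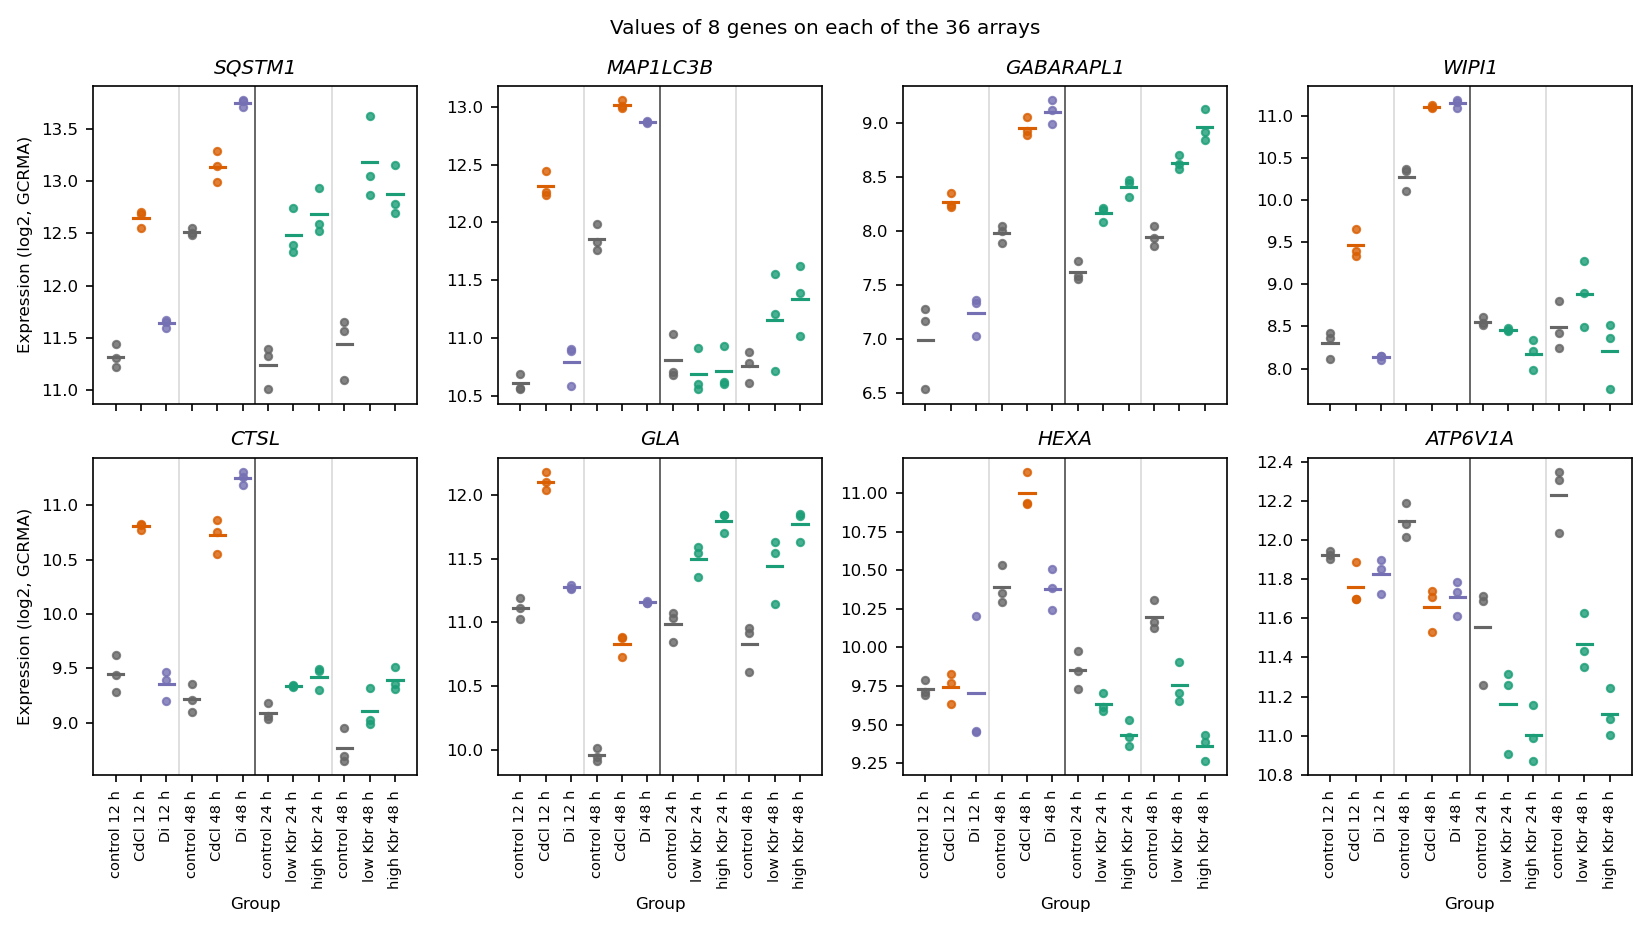
Log2 expression of 8 genes on each array (points) with group means (bars), controls in grey, CdCl in orange, Di in purple and Kbr in green; the dark line parts the sets, and values are read within a set. SQSTM1 and GLA stand above control at 48 h in every treatment, CTSL is highest with Di at 48 h (mean 11.25), HEXA rises with CdCl and falls with Kbr at 48 h, and the controls of SQSTM1, MAP1LC3B and WIPI1 climb from 12 h to 48 h.

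Among the genes of initiation and nucleation, WIPI1, which binds the phosphoinositide of the nascent membrane, rose with CdCl and Di. At 12 h it read 8.12, 8.42 and 8.36 in control, 9.33, 9.40 and 9.66 with CdCl and 8.15, 8.11 and 8.15 with Di, and at 48 h 10.36, 10.11 and 10.35 in control, 11.12, 11.10 and 11.09 with CdCl and 11.18, 11.17 and 11.09 with Di. The 48 h controls lay above all 12 h arrays, treated ones included, and treated arrays lay above control in 3 of the 4 comparisons. The rises were 1.32 ± 0.16 at 12 h of CdCl (2.5-fold, adjusted p = 2.29e-06), 0.83 at 48 h (adjusted p = 0.00017) and 0.87 at 48 h of Di (adjusted p = 8.37e-05). In the Kbr set its only call was 0.40 at 48 h of the low dose (adjusted p = 0.0461), which was lost with replicate numbers as a block (adjusted p = 0.0515) and without control replicate 1 or 2 or low Kbr replicate 1 or 2 (highest adjusted p = 0.340), and its arrays there (9.27, 8.90 and 8.5) overlapped control (8.24, 8.42 and 8.81).

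ULK1, the kinase that starts autophagosome formation, was called only at 48 h of Di, where it read 6.18, 6.61 and 6.89 against 5.73, 6.11 and 5.29 in control. The lowest treated array was barely above the highest control, the difference was 0.85 ± 0.24 (adjusted p = 0.00571), and the call was lost without control replicate 3 (adjusted p = 0.0567). ATG13, a partner of ULK1 in its complex, rose at 48 h of CdCl from 7.97, 8.05 and 8.12 to 8.77, 9.16 and 8.67 (0.82 ± 0.14, adjusted p = 3.26e-05) and at 48 h of Di to 8.69, 8.59 and 8.80 (0.65, adjusted p = 0.000494), with no overlap. BECN1, which activates the nucleating lipid kinase, fell by 0.36 ± 0.11 at 48 h of high Kbr (adjusted p = 0.00797) and by 0.41 at 24 h (adjusted p = 0.00545); without replicate 3 of the 48 h high Kbr group the first was lost. ATG14, the subunit that directs that kinase to autophagy, rose by 0.35 ± 0.09 at 48 h of high Kbr (adjusted p = 0.00118). It was 0.24 below control at 48 h of CdCl (adjusted p = 0.0281), a call lost without control replicate 2 or 3 or CdCl replicate 2 (highest adjusted p = 0.186) and with median centring.

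The 5 conjugation genes attach ATG8 proteins to lipid: ATG7 and ATG3 activate and transfer them, and ATG12, ATG5 and ATG16L1 form the ligase. ATG16L1, which sets the site of conjugation, rose most in the Kbr set. It read 6.70, 6.45 and 6.79 in the 24 h control, 7.83, 7.54 and 7.35 at the low dose and 7.87, 7.93 and 7.41 at the high dose, and 6.40, 6.45 and 6.47 in the 48 h control, 8.39, 8.18 and 7.73 at the low dose and 7.87, 8.27 and 7.78 at the high dose. Treated and control arrays did not overlap at either time, while the doses overlapped each other. At 48 h the rise was 1.66 ± 0.17 at the low dose (3.15-fold, adjusted p = 1.26e-08) and 1.53 at the high dose (2.89-fold, adjusted p = 9.89e-09). With CdCl it passed at neither time, and with Di it rose by 0.46 at 48 h (adjusted p = 0.0299), which was lost without control replicate 3 or Di replicate 1 or 3 (highest adjusted p = 0.104).

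ATG12, the ubiquitin-like protein joined to ATG5, read 9.24, 9.48 and 9.39 in the 12 h control and 10.35, 10.38 and 10.45 with CdCl, a rise of 1.18 ± 0.09 (2.27-fold, adjusted p = 3.22e-10). It also rose at 48 h of CdCl (0.56, adjusted p = 6.73e-06), of high Kbr (0.74, adjusted p = 3.34e-08) and of low Kbr (0.47, adjusted p = 7.94e-05), and lay at 0.05 at 48 h of Di (adjusted p = 0.702). ATG5 rose by 0.50 ± 0.12 at 48 h of CdCl (adjusted p = 0.000875) and by 0.61 at 48 h of Di (adjusted p = 7.83e-05). Its rises at 48 h of high Kbr (0.37, adjusted p = 0.00661) and low Kbr (0.33, adjusted p = 0.0211) depend on the probe set: a dimmer one of the same gene fell by 1.43 (adjusted p = 1.03e-07) and 0.72 (adjusted p = 0.00181). At 24 h ATG5 was 0.28 above control at the high dose and 0.33 at the low dose, which passed only with the replicate block (adjusted p = 0.0129 and 0.00912). ATG7, the enzyme that activates both ubiquitin-like proteins, fell at 12 h of CdCl from 7.02, 7.19 and 7.03 to 5.82, 6.26 and 5.83 (-0.95 ± 0.22, adjusted p = 0.00019), with no overlap. Averaging its probe sets removed that call (adjusted p = 0.287). ATG3, which passes ATG8 proteins to lipid, rose by 0.29 ± 0.10 at 48 h of CdCl (adjusted p = 0.0229), lost without control replicate 3 or CdCl replicate 1 or 3 (highest adjusted p = 0.104).

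Of 44 further autophagy genes 40 were measured. At 48 h 12 rose and 3 fell with CdCl, 15 rose and 5 fell with Di, 17 rose and 12 fell with high Kbr, and 11 rose and 8 fell with low Kbr, with medians of 0.14, 0.16, 0.10 and 0.11. The shares higher were 30%, 37.5%, 42.5% and 27.5%, beside 20.7%, 19.1%, 27.3% and 23.8% of all genes. The shares lower were 7.5%, 12.5%, 30% and 20%, beside 22%, 23.9%, 34.5% and 23.2%, so those of both Kbr doses lay nearest the background. RUBCN and PLEKHM1, which act at the late endosome and lysosome, rose with CdCl (1.05 ± 0.24 and 0.85 ± 0.16) and Di (1.55 for each). ATG101, a subunit of the ULK1 complex, rose by 1.63 ± 0.12 with high Kbr (adjusted p = 6.25e-12). FYCO1, which links autophagosomes to motors, read 7.03, 7.50 and 7.37 in the 48 h Kbr control, 6.55, 6.32 and 5.76 at the low dose and 5.30, 4.84 and 4.98 at the high dose. The 3 groups did not overlap, and the fall was 2.26 ± 0.15 at the high dose (adjusted p = 1.13e-12).

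Of the transcription factors of lysosomal genes, TFEB passed in no comparison. Its probe set lay near the floor, at 4.52, 4.49 and 4.71 in the 48 h control of the CdCl and Di set against 4.52, 5.4 and 4.52 with CdCl and 4.69, 4.56 and 4.52 with Di, so a change of a dim transcript may not be seen. TFE3, its relative, rose in 7 of 8. At 48 h it read 9.20, 9.36 and 9.39 in control, 10.71, 10.57 and 10.60 with CdCl and 10.42, 10.45 and 10.63 with Di, and in the Kbr set 9.57, 9.15 and 9.57 in control, 10.61, 9.92 and 10.15 at the low dose and 10.39, 10.07 and 10.17 at the high dose. Treated arrays lay above control in both sets, by 1.31 ± 0.16 with CdCl (2.48-fold, adjusted p = 1.92e-07), 1.19 with Di (adjusted p = 7.8e-07), 0.78 with high Kbr (adjusted p = 0.000145) and 0.80 with low Kbr (adjusted p = 0.000215).

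RefSeq promoter windows of the GRCh38.p14 build, 250 bases before to 50 after a start, were at hand for 33 of the 43 genes. TCACGTGA, the core of sites that TFEB and TFE3 bind, was found on either strand in 6 of the 33 (ATG3, ATP6V0D1, CTSA, GAA, LAMP1 and MCOLN1) and in 0.980% of 35116 windows; it holds the shorter CACGTG, found in 9 members and 7.26% of windows. The CLEAR motif, which extends TCACGTGA by a base at each end, was in GAA and MCOLN1 and in 0.353% of windows. TGACNNNGC, the core of antioxidant response elements, was in 10 members and 13.3% of windows. The stretches just before the start of 5 genes with TCACGTGA (CACGTG in capitals) are shown 5′ to 3′ on the gene's strand. Those of CTSL and MAP1LC3B, picked from the 10 with TGACNNNGC, follow (that motif or its complement in capitals).
MCOLN1, chr19:7522524-7522623, plus strand: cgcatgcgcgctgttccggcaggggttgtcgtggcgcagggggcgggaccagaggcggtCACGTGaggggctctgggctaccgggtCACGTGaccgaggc
LAMP1, chr13:113297039-113297238, plus strand: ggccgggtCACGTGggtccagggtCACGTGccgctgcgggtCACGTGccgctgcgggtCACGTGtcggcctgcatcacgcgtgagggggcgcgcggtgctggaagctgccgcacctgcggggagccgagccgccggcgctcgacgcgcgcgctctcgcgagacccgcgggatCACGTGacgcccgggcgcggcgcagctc
CTSA, chr20:45891235-45891334, plus strand: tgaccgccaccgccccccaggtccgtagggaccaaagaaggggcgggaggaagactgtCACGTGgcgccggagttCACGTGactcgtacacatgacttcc
ATP6V0D1, chr16:67481158-67481257, minus strand: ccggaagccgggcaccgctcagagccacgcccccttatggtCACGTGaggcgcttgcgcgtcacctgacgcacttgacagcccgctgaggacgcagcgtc
GAA, chr17:80101481-80101580, plus strand: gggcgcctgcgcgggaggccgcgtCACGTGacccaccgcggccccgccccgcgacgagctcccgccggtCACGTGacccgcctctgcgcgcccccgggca
CTSL, chr9:87726019-87726118, plus strand: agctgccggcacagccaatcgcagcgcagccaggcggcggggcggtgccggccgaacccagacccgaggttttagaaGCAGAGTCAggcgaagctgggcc
MAP1LC3B, chr16:87392236-87392335, plus strand: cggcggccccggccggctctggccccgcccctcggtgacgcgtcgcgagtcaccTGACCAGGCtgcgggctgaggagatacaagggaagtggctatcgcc

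At 48 h of CdCl 5 of the 6 genes with TCACGTGA rose and 0 fell (median 0.60), beside 14 of 27 without it (median 0.50). With Di at 48 h 1 of the 6 rose and 13 of the 27 did, and at 48 h of high Kbr 0 of the 6 rose and 1 fell, beside 11 and 8 of the 27. These are descriptions of letters in a window, not of binding.

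On the lysosomal membrane the largest of the 5 differences at 48 h of CdCl was that of MCOLN1, which encodes the calcium channel mucolipin-1. It read 7.34, 7.54 and 7.32 in the 48 h control, 8.61, 8.38 and 8.48 with CdCl, and 6.96, 6.98 and 6.86 with Di. The CdCl arrays lay above and the Di arrays below every control, by 1.08 ± 0.20 (2.12-fold, adjusted p = 7.6e-05) and by -0.47, which did not pass (adjusted p = 0.0613). LAMP1, a main glycoprotein of that membrane with 5 CACGTG runs in the stretch shown above, rose from 13.37 to 13.42 across the control arrays to 13.90 or above on every array with CdCl at 48 h (0.58 ± 0.07, adjusted p = 2.52e-07), with no overlap. Its 0.21 at 48 h of Di (adjusted p = 0.0199) was lost without control replicate 2 or 3 or Di replicate 1 or 3 (highest adjusted p = 0.0644). In the Kbr set LAMP1 lay between -0.09 and -0.01 of control with no call. LAMP2, its relative, passed in no comparison with control by its brightest probe set. Dimmer probe sets of LAMP2 differed between CdCl and Di at 48 h by 0.33 and 0.99, so a change of LAMP2 from control is not excluded.

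NPC1, which exports cholesterol from the lysosome, read 11.19, 11.20 and 11.30 in the 12 h control and 12.08, 12.14 and 12.07 with CdCl, and 11.51, 11.68 and 11.73 in the 48 h control, 12.51, 12.62 and 12.46 with CdCl and 12.27, 12.15 and 12.20 with Di. Treated arrays stood clear of control in all 3 cases, by 1.03 ± 0.12 (adjusted p = 8.81e-07), 0.89 (adjusted p = 4.12e-07) and 0.57 (adjusted p = 0.000206). It also rose by 0.54 at 48 h of low Kbr (adjusted p = 0.000348). With high Kbr at 24 h it was called lower, 10.89 against 11.22 in control (-0.33, adjusted p = 0.0252). The mean of its probe sets turned that to 0.06. The call was lost with median centring (adjusted p = 0.167) and without control replicate 2 or 3 or high Kbr replicate 1 (highest adjusted p = 0.119). NPC2, the soluble protein that hands cholesterol to NPC1, moved down instead, from 12.67, 12.63 and 12.60 in the 48 h Kbr control to 12.04, 12.13 and 12.24 at the low dose and 11.75, 12.00 and 12.12 at the high dose. No treated array reached the controls, and the falls were 0.50 ± 0.09 (adjusted p = 6.14e-05) and 0.67 (adjusted p = 3.27e-07). With CdCl at 48 h it was 0.30 lower (adjusted p = 0.00963, and 0.0539 without CdCl replicate 3).

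All 5 cathepsins, the lysosome's proteases, rose at 48 h of CdCl, and CTSL rose furthest. CTSL read 9.10, 9.21 and 9.36 in the 48 h control, 10.87, 10.55 and 10.75 with CdCl and 11.18, 11.30 and 11.26 with Di, and at 12 h 9.44, 9.62 and 9.28 in control, 10.82, 10.77 and 10.82 with CdCl and 9.40, 9.20 and 9.47 with Di. CdCl arrays were high at both times and Di arrays only at 48 h. The rise was 1.52 ± 0.11 at 12 h of CdCl (2.87-fold), 1.5 at 48 h (2.83-fold, adjusted p = 5.09e-12) and 2.02 at 48 h of Di (4.07-fold, adjusted p = 6.19e-15), the largest difference of any of the 43 genes in the 8 comparisons. With Kbr CTSL rose less, by 0.63 at 48 h of the high dose (adjusted p = 9.73e-06) and 0.35 at the low dose (adjusted p = 0.00873, lost without control replicate 2 or low Kbr replicate 3, highest adjusted p = 0.0806).

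CTSD, an aspartic protease, read 8.89, 8.93 and 8.98 in control and 10.00, 10.21 and 9.80 with CdCl at 48 h. Its groups stood apart by 1.07 ± 0.32 (2.1-fold, adjusted p = 0.00877), and its large SE comes with a wide spread in the Kbr set, where replicate 1 was the highest and replicate 2 the lowest array of all 6 groups (9.24, 8.0 and 8.95 in the 48 h control). With Di it read 9.34, 9.42 and 9.46 and did not pass (0.47, adjusted p = 0.258). With low Kbr at 48 h its 0.43 passed only with the replicate block (adjusted p = 0.00159). CTSB, a cysteine protease, rose from 10.31, 10.37 and 10.37 to 11.03, 11.18 and 10.96 with CdCl (0.70 ± 0.14, adjusted p = 0.000169) and 10.89, 10.83 and 10.84 with Di (0.50, adjusted p = 0.00429). In the Kbr set it fell from 10.51, 10.13 and 10.35 to 10.02, 9.62 and 9.99 at the low dose (-0.45, adjusted p = 0.00912) and 10.04, 9.78 and 9.91 at the high dose (-0.42, adjusted p = 0.0109). The low dose arrays and the high dose arrays lay below every control, but the falls were lost without control replicate 1 or without replicate 2 of the treated group (highest adjusted p = 0.0830 for the low dose and 0.0711 for the high dose). Those fits took no account of the replicate numbers, and both falls passed with the replicate block on all arrays. CTSA, which protects NEU1 in a complex, rose by 0.68 ± 0.11 at 48 h of CdCl (adjusted p = 7.56e-06) and in no other comparison with control; with the replicate block it was 0.21 lower at 48 h of high Kbr (adjusted p = 0.0250). CTSZ was 0.87 ± 0.33 higher at 48 h of CdCl (adjusted p = 0.0363), a call lost without control replicate 1 or 2 or CdCl replicate 1 or 3 (highest adjusted p = 0.150), and with the block it was 0.57 lower at 48 h of high Kbr (adjusted p = 0.0356).

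The glycosidases and lipid hydrolases split. GLA, alpha-galactosidase A, rose in 7 of 8 comparisons. It read 11.19, 11.11 and 11.02 in the 12 h control and 12.10, 12.04 and 12.18 with CdCl, and 9.94, 9.91 and 10.01 in the 48 h control, 10.72, 10.87 and 10.88 with CdCl and 11.15, 11.17 and 11.15 with Di. The control lost more than 1 unit between the times and the treated arrays stayed above it, by 1.15 ± 0.10 at 12 h of CdCl, 0.87 at 48 h (adjusted p = 1.16e-07) and 1.20 at 48 h of Di (2.30-fold, adjusted p = 2.31e-10). In the Kbr set the rises at 48 h were 0.94 at the high dose (adjusted p = 1.06e-08) and 0.61 at the low dose (adjusted p = 2.68e-05).

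HEXA, the alpha subunit of beta-hexosaminidase, moved in opposite directions in the sets. It read 10.35, 10.29 and 10.54 in the 48 h control of CdCl, 10.94, 11.14 and 10.93 with CdCl and 10.51, 10.24 and 10.39 with Di, and 10.30, 10.16 and 10.13 in the 48 h control of Kbr, 9.91, 9.65 and 9.71 at the low dose and 9.44, 9.26 and 9.39 at the high dose. CdCl arrays lay above their controls (0.61 ± 0.13, adjusted p = 0.00046), Di arrays overlapped them (-0.02), and the Kbr arrays fell in order of dose, by 0.44 (adjusted p = 0.00692) and 0.84 (adjusted p = 3.46e-06). With the mean of its probe sets the Kbr falls did not pass (adjusted p = 0.280 and 0.195). GAA, the acid alpha-glucosidase, read 6.52, 5.13 and 6.17 in that Kbr control, 5.13, 4.30 and 4.90 at the low dose and 4.28, 4.28 and 4.29 at the high dose. The high dose arrays sat together near the floor below all controls, a fall of 1.66 ± 0.30 (3.16-fold, adjusted p = 3.01e-05), while the low dose (-1.16, adjusted p = 0.0026) reached up to the lowest control. Each low dose array lay below the control of its own replicate number.

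GUSB, beta-glucuronidase, was called lower in 7 of 8 comparisons. With the mean of its probe sets the calls at 12 h and 48 h of CdCl and at 24 h of high and low Kbr were lost. The call at 24 h of low Kbr was also lost without control replicate 1 or 2 or low Kbr replicate 2 or 3 (highest adjusted p = 0.201). It read 10.75, 10.79 and 10.81 in the 48 h Kbr control, 10.10, 9.91 and 10.15 at the low dose and 9.70, 9.70 and 9.72 at the high dose, and 10.34, 10.26 and 10.29 in the other 48 h control against 9.38, 9.47 and 9.36 with Di. None of these groups overlapped, and the falls were 0.73 ± 0.09 (adjusted p = 1.81e-07), 1.07 (adjusted p = 3.58e-11) and 0.89 (adjusted p = 2.43e-09). Its smaller fall at 48 h of CdCl (0.23, adjusted p = 0.0347) was lost without control replicate 1 or 3 or CdCl replicate 1 or 3 (highest adjusted p = 0.123) and with median centring, as was its fall at 12 h of CdCl with median centring. NEU1, the sialidase, fell by 0.33 ± 0.09 at 48 h of Di (adjusted p = 0.00313) and by 0.38 at 48 h of high Kbr (adjusted p = 0.000546). ASAH1, acid ceramidase, fell by 0.49 ± 0.16 at 48 h of Di (adjusted p = 0.0165, and 0.0576 without control replicate 2), and at 24 h of high Kbr its difference of -0.22 passed only with the replicate block (adjusted p = 0.0468). PSAP, the precursor of the saposins that help these enzymes, rose from 13.42, 13.42 and 13.40 to 13.87, 13.85 and 13.81 with CdCl (0.43 ± 0.10, adjusted p = 0.000762) and 14.10, 14.04 and 14.15 with Di at 48 h (0.68, adjusted p = 1.56e-06). With Kbr at 48 h it lay 0.14 above control at the high dose, which passed only with the replicate block (adjusted p = 0.0372).

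Of 34 hydrolases outside the list 24 were measured, and with Kbr more of them fell than rose. High Kbr at 48 h had 0 higher and 20 lower, with a median of -0.96, and at 48 h of low Kbr 0 rose and 15 fell, with a median of -0.66. At 24 h of high Kbr 0 rose and 13 fell. The shares lower were 83.3%, 62.5% and 54.2%, beside 34.5%, 23.2% and 25.3% of all genes. CdCl at 48 h called 5 higher and 6 lower, 20.8% and 25.0% beside 20.7% and 22% of all genes. Di called 1 higher and 9 lower, 4.17% and 37.5% beside 19.1% and 23.9%. HGSNAT, an enzyme of heparan sulfate breakdown, read 8.01, 8.11 and 7.68 in the 48 h Kbr control, 6.59, 6.85 and 6.63 at the low dose and 5.20, 5.77 and 5.10 at the high dose, 3 groups without overlap, and fell by 2.58 ± 0.22 at the high dose (adjusted p = 6.41e-11). CTSO, a papain-like cathepsin, fell from 6.37, 6.62 and 6.09 to 3.37, 3.37 and 3.53, below the floor of 4, which makes it at least 5.13-fold lower. IDS, iduronate sulfatase, rose by 1.63 ± 0.17 at 48 h of CdCl (adjusted p = 1.38e-08).

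**Figure D4:**
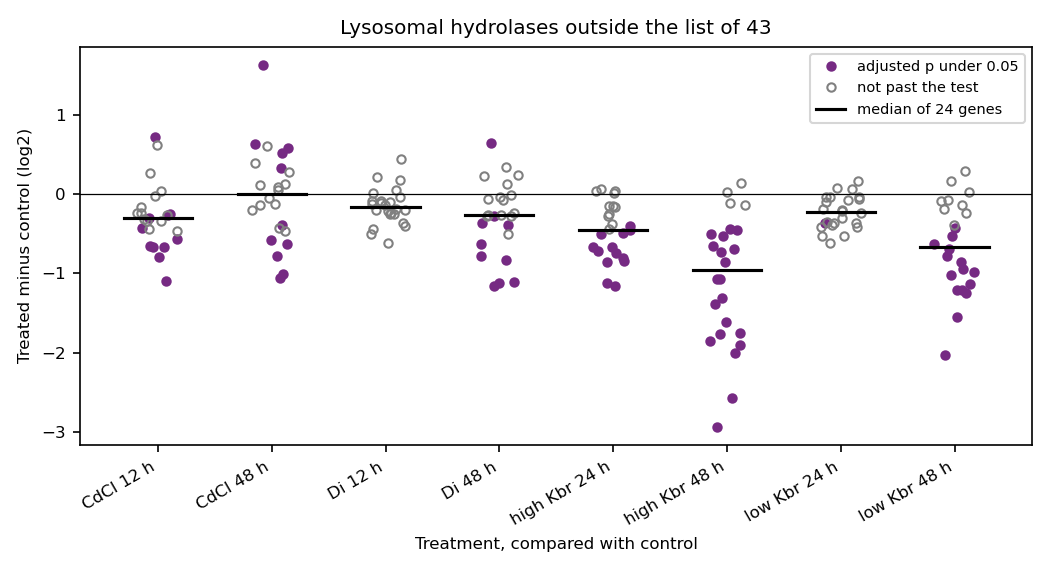
Treated minus control difference (log2, not shifted for the median of all genes) of each of the 24 measured hydrolases outside the list of 43 in the 8 comparisons, filled where the adjusted p was under 0.05, with a bar at the median. At 48 h of high Kbr 20 are filled and all of these lie below 0 (median -0.96), and at 48 h of CdCl filled points lie on both sides (5 above, 6 below).

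The V-ATPase subunits also split, between subunits of one ring. ATP6V1A, the catalytic subunit, fell. It read 12.31, 12.34 and 12.03 in the 48 h Kbr control, 11.43, 11.62 and 11.35 at the low dose and 11.24, 11.09 and 11.01 at the high dose, and 12.08, 12.01 and 12.19 in the other 48 h control, 11.74, 11.53 and 11.71 with CdCl and 11.78, 11.73 and 11.61 with Di. All treated arrays lay below their controls, by 1.12 ± 0.12 at the high dose (2.17-fold, adjusted p = 5.9e-09), 0.76 at the low dose (adjusted p = 8.65e-06), 0.43 with CdCl (adjusted p = 0.00425) and 0.38 with Di (adjusted p = 0.0102, and 0.0502 without Di replicate 3). ATP6V1C1, which joins the head of the pump to its membrane part, rose. It read 11.59, 11.61 and 11.72 in the 48 h control, 12.39, 12.23 and 12.47 with CdCl and 12.41, 12.29 and 12.31 with Di, and 10.66, 11.21 and 11.30 in the 48 h Kbr control, 11.46, 11.79 and 12.07 at the low dose and 11.86, 12.13 and 12.07 at the high dose. Again no group overlapped its control, and the rises were 0.72 ± 0.15 with CdCl (adjusted p = 0.000321), 0.70 with Di (adjusted p = 0.000449, and 0.0569 with the mean of probe sets), 0.72 at the low dose (adjusted p = 0.000337) and 0.96 at the high dose (adjusted p = 3.96e-06). At 12 h of CdCl it rose by 1.45 (2.74-fold, adjusted p = 1.24e-07), and at 24 h of low Kbr its 0.42 passed only with the block (adjusted p = 0.00375).

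ATP6V1B2, the other subunit of the catalytic ring, rose by 1.04 ± 0.12 at 12 h of CdCl (adjusted p = 8.56e-07), 0.74 at 48 h (adjusted p = 7.98e-06) and 0.44 at 48 h of high Kbr (adjusted p = 0.00157). ATP6V1D, of the central stalk, rose by 0.54 ± 0.11 at 48 h of CdCl (adjusted p = 0.000237) and by 0.38 at 48 h of high Kbr (adjusted p = 0.00353). ATP6V0D1, of the membrane part, read 11.88, 11.90 and 11.95 in the 48 h control against 12.47, 12.46 and 12.36 with CdCl, all above it (0.52 ± 0.15, adjusted p = 0.00651), and passed nowhere else. ATP6V1H, a regulatory subunit, read 10.23, 10.09 and 10.24 in that control against 10.63, 10.62 and 10.59 with Di (0.43 ± 0.10, adjusted p = 0.000778), and was 0.19 higher at 48 h of high Kbr only with the block (adjusted p = 0.0257). ATP6V0E1 passed in none of the 8, except with the block at 24 h of high Kbr (0.24, adjusted p = 0.0374). ATP6AP1, an accessory subunit, fell by 0.38 ± 0.16 at 48 h of high Kbr (adjusted p = 0.0382), lost without control replicate 1 or 3 or high Kbr replicate 2 or 3 (highest adjusted p = 0.210).

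Of 17 further V-ATPase genes 12 were measured. ATP6V0D2, a tissue-restricted form of the subunit above, was below the floor in every control, at 12 h and with Kbr at either time, and read 5.91, 6.15 and 6.48 at 48 h of CdCl and 6.08, 6.40 and 6.23 at 48 h of Di against 2.29, 2.26 and 2.28 in control. It was thus at least 4.54-fold and at least 4.71-fold higher, taken against the floor of 4. ATP6V0D2 passed the filter only through those groups at 48 h of CdCl and of Di. It is counted as higher with both below, so its part in those shares was fixed by the filter. At 48 h the measured 12 counted 5 higher and 1 lower with CdCl (41.7% and 8.33%, beside 20.7% and 22% of all genes). They counted 4 and 3 with Di (33.3% and 25.0%, beside 19.1% and 23.9%). With high Kbr 5 rose and 4 fell (41.7% and 33.3%, beside 27.3% and 34.5%). With so few genes such shares shift by a large step for each call.

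CdCl and Di share their controls, so they are compared directly. At 12 h 16 members differed, 14 higher and 2 lower with CdCl, where 35.6% of all genes did (13.6% higher, 22.1% lower), led by MAP1LC3B (12.32 with CdCl against 10.79 with Di, a difference of 1.52 ± 0.16, adjusted p = 1.55e-08), CTSL (1.45 ± 0.11, adjusted p = 1.74e-11) and WIPI1 (1.33 ± 0.16, adjusted p = 3.55e-07). At 48 h 21 differed, 13 higher and 8 lower with CdCl, against 37.6% (20.5% higher, 17.1% lower). MCOLN1 was 1.55 ± 0.20 higher with CdCl (8.49 against 6.93, adjusted p = 6.95e-07), GAA 1.27 ± 0.30 (5.37 against 4.10, adjusted p = 0.00155) and CTSA 0.90 ± 0.11 (11.29 against 10.39, adjusted p = 1.5e-07). ULK1 was 1.22 ± 0.24 lower (5.34 against 6.56, adjusted p = 0.000228), SQSTM1 0.61 ± 0.16 lower (adjusted p = 0.00357) and CTSL 0.52 ± 0.11 lower (adjusted p = 0.000289). MAP1LC3B, GABARAPL1 and WIPI1 passed at 12 h and not at 48 h. With 1 array left out, 13 to 18 members were called at 12 h and 17 to 19 at 48 h. LAMP2 was 0.30 lower with CdCl at 48 h (adjusted p = 0.013) by the brightest of its probe sets and 0.33 and 0.99 higher by the others (adjusted p = 0.00543 and 6.05e-07).

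The Kbr doses differed little at 24 h. High against low called 0 members in limma, where 4.39% of all genes passed (0.685% higher, 3.71% lower), with 8 members at an unadjusted p under 0.05 (18.6%, beside 17.8% of all genes). With the replicate block 5 passed (1 higher, 4 lower), where 10.6% of all genes did, among them GAA (-0.90, adjusted p = 0.0111 with the block and 0.0939 without). At 48 h 10 members passed, 3 higher and 7 lower at the high dose, against 23.8% of all genes (6.46% higher, 17.3% lower), and 16 with the block (7 higher, 9 lower), where 32.9% of all genes passed. The 6 gained were SQSTM1 and CTSD, lower at the high dose, and GABARAPL1, CTSL, ATP6V1B2 and ATP6V1D, higher, with adjusted p from 0.00741 to 0.0469. The split turned to 6 higher and 1 lower with median centring and to 6 and 6 with quantile normalization. WIPI1 was 0.68 ± 0.16 lower at the high dose (8.21 against 8.89, adjusted p = 0.00317), NPC1 0.43 ± 0.12 lower (adjusted p = 0.00674, while a dimmer probe set rose by 1.05) and GUSB 0.35 ± 0.09 lower (adjusted p = 0.00451). ATG14 was 0.55 ± 0.09 higher (8.33 against 7.77, adjusted p = 4.84e-05). Without high Kbr replicate 2, high Kbr replicate 3 or low Kbr replicate 1 the count dropped to 5, 6 or 4.

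The change of each effect with time was tested as a contrast of its own. The Di effect grew: 21 members changed, 19 upward and 2 downward, where 29% of all genes did (15.1% upward, 13.9% downward). CTSL led, from -0.09 at 12 h to 2.02 at 48 h (change 2.12 ± 0.15, adjusted p = 1.68e-11). The CdCl effect changed for 16, 14 upward and 2 downward, against 24.2% (16.4% upward, 7.78% downward), and for 9 without CdCl 12 h replicate 3. The median over all genes was 0.12 in this contrast, and with median centring the split became 7 and 4. The CdCl rise of SQSTM1 was smaller at 48 h than at 12 h (adjusted p = 0.0261), as was that of ATG12 (adjusted p = 0.00782), while CTSA moved from 0.08 to 0.68 (adjusted p = 0.000544) and MCOLN1 from -0.14 to 1.08 (adjusted p = 0.000822). In these pairs the 12 h value is relative to the median of all genes and the 48 h value is not. The p-values are those of the unshifted change. The high Kbr effect changed for 7 from 24 h to 48 h, 3 upward and 4 downward, against 15% (6.89% upward, 8.1% downward), with 1 upward and 3 downward after centring. With the replicate block NPC1, ATP6V1C1 and ATP6V1D also passed (adjusted p = 0.0299, 0.0120 and 0.0134). The fall of GUSB deepened from -0.40 to -1.07 (adjusted p = 0.0006) and that of GABARAP from -0.63 to -1.23 (adjusted p = 0.00646). That count of 7 dropped to 2 without replicate 3 of the 24 h control or replicate 1 of the 48 h control, to 3 without high Kbr 24 h replicate 2, and to 4 without 48 h control replicate 2, high Kbr 24 h replicate 1 or high Kbr 48 h replicate 1 or 2.

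The controls changed too, which every effect above is measured against. In the CdCl and Di set 23 members differed between the 48 h and 12 h controls, 20 higher and 3 lower at 48 h, where 45.7% of all genes did (18.3% higher, 27.3% lower). WIPI1 was 1.97 ± 0.16 higher at 48 h (10.27 against 8.30, adjusted p = 1.67e-10). MAP1LC3B was higher by 1.25 ± 0.16 (adjusted p = 2.74e-07), SQSTM1 by 1.19 ± 0.16 (adjusted p = 8.5e-07) and GABARAPL1 by 0.98 ± 0.13 (adjusted p = 3.58e-07), and GLA was 1.16 ± 0.10 lower (adjusted p = 8e-10). The actin 3′ minus 5′ difference was 1.37 to 1.58 in the 48 h control and 1.69 to 1.98 in the 12 h control. Its part in these differences was not tested. In the Kbr set 6 differed between 48 h and 24 h, 5 higher and 1 lower (6 and 0 with centring), against 12.2% (5.08% higher, 7.16% lower), with ATP6V1A 0.67 ± 0.12 higher (adjusted p = 0.000605). The difference of GABARAP, 0.28, passed only with the replicate block (adjusted p = 0.00467). That count was 3 without replicate 3 of the 24 h control or replicate 1 or 2 of the 48 h control.

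CdCl and high Kbr at 48 h have separate controls, so their calls can be set side by side, although the set and the compound cannot be told apart. Both raised 11 members, 45.8% of the 24 that CdCl raised and 84.6% of the 13 that high Kbr raised (over all genes, 41.5% and 31.4%): SQSTM1, MAP1LC3B, GABARAPL1, ATG5, ATG12, TFE3, CTSL, GLA, ATP6V1B2, ATP6V1C1 and ATP6V1D. CdCl alone raised 55.8% of the members and 20.7% of all genes, and high Kbr 30.2% and 27.3%. The overlap shares of members and of all genes thus start from unlike rates. Both lowered NPC2, GUSB and ATP6V1A, 75% of the 4 that CdCl lowered and 23.1% of the 13 that high Kbr lowered (over all genes, 53.3% and 34.0%). CTSB and HEXA rose with CdCl and fell with high Kbr (4.65% of members, beside 4.57% of all genes). ATG14 did the reverse (2.33%, beside 4.05%). Di and high Kbr both raised 10, 55.6% of the 18 of Di and 76.9% of the 13 of high Kbr (over all genes, 50.2% and 35.2%), and both lowered 6, all of the 6 that Di lowered (over all genes, 63.6%). Di alone raised 41.9% of the members and 19.1% of all genes, so these rates are unlike too. Tested as a contrast, the CdCl effect differed from that of high Kbr for 23 members, 20 of them higher with CdCl, where 50.1% of all genes did (27.9% higher, 22.3% lower). GAA differed by 2.29 ± 0.43 (0.63 with CdCl, -1.66 with high Kbr, adjusted p = 7.29e-05), HEXA by 1.44 ± 0.19 (adjusted p = 3.54e-07) and CTSZ by 1.43 ± 0.47 (adjusted p = 0.0127), and ATG16L1 by -1.31 ± 0.24 (0.22 against 1.53, adjusted p = 4.86e-05). The Di effect differed from it for 15, 13 higher and 2 lower, against 43.5% (23.6% higher, 19.9% lower).

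**Figure D5:**
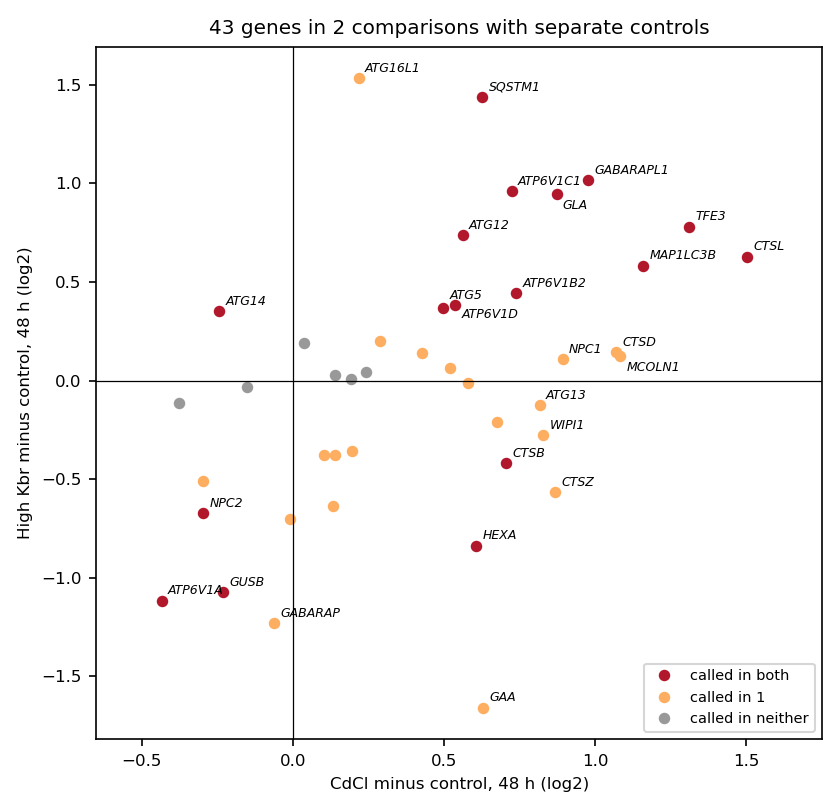
Difference from control at 48 h (log2) with CdCl (horizontal) and with high Kbr (vertical) for each of the 43 genes, coloured by whether 2, 1 or 0 of the comparisons passed. CTSL, TFE3, GABARAPL1 and SQSTM1 lie at the upper right, NPC2, GUSB and ATP6V1A at the lower left, and HEXA, CTSB and GAA to the right and below 0, of which GAA passed only with high Kbr.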

How the data were processed

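Cells had been treated near confluency, and biotinylated cRNA was hybridised, per the labels' protocols. What the authors deposited is 1 log2 value for each probe set and array, which the submitters' processing notes credit to GCRMA, a method that corrects background from probe sequences and then normalizes. The GCRMA version is not given in the sources used here. Such values compress the differences of dim genes and remove part of a shift common to most genes. The 36 array medians lay between 2.91 and 3.02, and no array copied another. Their number limits the precision.

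Groups came from the labels. Of 54675 probe sets, 62 controls were left out, and those above 4 on at least 3 arrays with 1 gene in the platform annotation were kept (20444; 1801 of the 54675 named several genes and 11721 none). Each gene was read from its brightest probe set on average, for 11092 genes and all 43 listed ones (92 kept probe sets, and 25 genes with several). All 36 arrays entered 1 limma fit (version 3.58.1, R 4.3.3) with a mean for each of 12 groups (lmFit, eBayes, Benjamini-Hochberg over all genes). A fold against a group whose mean was below 4 was taken against 4. The members and lists were chosen with earlier results of these data known.

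Any listed gene could be named. Values per array are given for 15 index genes chosen by role and, in each comparison with control, for up to 3 genes each way that passed with no overlap, taken by size; some others were added after their values were seen. Of the further lists the 3 largest each way could be named. Tested on simulated data, the model recovered 20.9% to 40.3% of probe sets changed by 0.5 log2 units. It recovered 71.6% to 91.0% at 1 unit and 97.0% to 100% at 2 units, by comparison. That simulation changed few of the 20444 probe sets and drew independent noise for each array, so its shares need not hold here. Same-numbered arrays of the Kbr set deviated together in all 45 pairs (r = 0.218 to 0.701), and the numbers were taken to pair them on the data alone; the report gives the calls against control that blocking changed in that set. The alternatives tried were median centring, quantile normalization, averaged probe sets, dropping the filter or raising it to 6, a trend in the variance, only the compared groups, a set fitted alone, the replicate block and leaving out each array.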

Additional observations from a re-analysis of the deposited data

Results flagged for a closer look

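These results are listed because an effect differed between times or compounds when the difference itself was tested in limma; causes were not tested. From 12 h to 48 h the CdCl effect changed for 16 of the 43 genes (37.2%, beside 24.2% of all genes). Relative to the median of all genes, GAA gained 1.29 log2 units, MCOLN1 1.26 and CTSD 1.24, and SQSTM1 changed by -0.82 and ATG12 by -0.58. Over the same times the Di effect changed for 21 (48.8%, beside 29% of all genes). Among them were gains of 2.12 for CTSL, 1.13 for ULK1 and 1.05 for PSAP, and changes of -0.68 for GUSB and -0.53 for GABARAP. The high Kbr effect changed from 24 h to 48 h for 7 (16.3%, beside 15% of all genes, near the background). Among them MAP1LC3B changed by 0.67, ATP6V1B2 by 0.48, ATG12 by 0.36, GUSB by -0.67, GABARAP by -0.60 and ATP6V1A by -0.57.

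At 48 h the CdCl effect stood apart from that of high Kbr for 23 genes (53.5%, beside 50.1% of all genes). Among them it was higher by 2.29 for GAA, 1.44 for HEXA and 1.43 for CTSZ. It differed by -1.31 for ATG16L1, -0.81 for SQSTM1 and -0.60 for ATG14. The Di effect stood apart from that of high Kbr for 15 (34.9%, beside 43.5% of all genes). Among them it differed by 1.40 for CTSL, 1.15 for WIPI1, 0.96 for ULK1, -1.07 for ATG16L1 and -0.69 for ATG12. The compounds lie in separate sets, so the set and the compound cannot be told apart.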

How the results depend on the processing

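Among recalculations of named genes, 1261 kept the direction and the side of the threshold, 41 lost the call, 21 gained it and 1 turned, that of NPC1 at 24 h of high Kbr (0.0563 with the mean of its probe sets). Counts that moved over 1.5 times were as follows, and the cause was not tested. Di at 12 h called 1 with median centring, 2 with the mean of probe sets, 1 with only the compared groups, 9 with its set fitted alone and 12 with the replicate block, whose numbers pair nothing in that set (r over 0.1 in 8 of 45 pairs, 3 of 18 arrays closest to their own number). With only the compared groups, low Kbr called 3 at 24 h and 13 at 48 h, high against low Kbr at 48 h 1, the change of the high Kbr effect 1 and the Kbr controls 0. With the set fitted alone, low Kbr at 24 h called 4, high against low Kbr at 48 h 5 and the change of the high Kbr effect 2; centring gave 4 there. With the replicate block, high against low Kbr called 5 at 24 h and 16 at 48 h; beside the calls given above, it changed no other call of a listed gene against control in the Kbr set. Leaving out 1 array at a time gave these ranges: CdCl 19 to 21 at 12 h and 24 to 27 at 48 h, Di 2 to 3 and 20 to 23, high Kbr 15 to 18 at 24 h and 23 to 27 at 48 h, low Kbr 4 to 10 and 18 to 23, high against low Kbr 0 and 4 to 13, CdCl against Di 13 to 18 and 17 to 19, the changes of effect 9 to 13 (CdCl), 19 to 20 (Di) and 2 to 9 (high Kbr), the controls 18 to 21 (48 h against 12 h) and 3 to 7 (48 h against 24 h), and the differences from the high Kbr effect 22 to 27 (CdCl) and 14 to 17 (Di). Signal near the floor limits TFEB, ULK1 and GAA most.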

Other observations

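Of 28 genes of the lysosomal membrane and of sorting to the lysosome that are not among the 43, 25 were measured. At 48 h 9 rose and 1 fell with CdCl, 11 rose and 4 fell with Di, 4 rose and 13 fell with high Kbr, and 6 rose and 5 fell with low Kbr, with medians of 0.25, 0.26, -0.29 and 0.01. The shares higher were 36%, 44%, 16% and 24%, beside 20.7%, 19.1%, 27.3% and 23.8% of all genes. The shares lower were 4%, 16%, 52% and 20%, beside 22%, 23.9%, 34.5% and 23.2%. With low Kbr both lay near the background. CTNS, the cystine exporter, rose by 1.01 ± 0.16 with CdCl (adjusted p = 1.41e-05), and LAMP3 read 8.90, 8.71 and 8.79 with Di against 6.64, 6.55 and 6.64 in control and 6.79, 6.30 and 6.52 with CdCl. The Di arrays stood alone, with a rise of 2.19 ± 0.08 (adjusted p = 9.82e-19). LAMP3 also climbed in the control of that set, from a mean of 2.35 at 12 h, below the floor of 4, to 6.61 at 48 h. In every group of the Kbr set, its 48 h control included, LAMP3 lay below the floor. SCARB2, the receptor that carries glucocerebrosidase to the lysosome, fell by 1.11 ± 0.09 with high Kbr (adjusted p = 6.25e-11).

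Of 31 genes of mTORC1, the kinase complex that restrains autophagy, and its lysosomal regulators, 28 were measured. At 48 h 8 rose and 5 fell with CdCl, 7 rose and 5 fell with Di, and 5 rose and 10 fell with high Kbr. The shares higher were 28.6%, 25.0% and 17.9%, beside 20.7%, 19.1% and 27.3% of all genes. The shares lower were 17.9%, 17.9% and 35.7%, beside 22%, 23.9% and 34.5%, near the background. TBC1D7, a subunit of the TSC complex, rose by 1.26 ± 0.12 with CdCl (adjusted p = 1.19e-09) and 1.71 with Di (adjusted p = 1.67e-12). TSC2, of the same complex, fell by 1.83 ± 0.35 with high Kbr (adjusted p = 4.57e-05), and SESN1, a stress sensor upstream of mTORC1, by 1.46 ± 0.31 with high Kbr and 1.86 with CdCl (adjusted p = 0.000157 and 1.49e-05).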
